A study of Mus musculus with 6 samples.

Results

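The open chromatin around 8 genes of the ETS family of transcription factors, Erg, Fli1, Ets1, Ets2, Etv6, Elf1, Spi1 and Spib, was described in 3 cell populations of mouse bone marrow. ATAC-seq uses a transposase to cut and tag open DNA, and each library is represented by its list of peaks. Peaks of the 6 lists were merged wherever they shared at least 1 bp, and a merged region belonged to an ETS gene when that gene was its nearest protein-coding gene interval within 100 kb (RefSeq, GRCm38, the assembly that mm10 names). By this rule 171 of 69171 regions were regions of the 8 genes: 27 of Erg, 23 of Fli1, 34 of Ets1, 25 of Ets2, 33 of Etv6, 23 of Elf1, 5 of Spi1 and 1 of Spib. A region counts as called in a library that has a peak in it.

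All cells came from unimmunised Adig mice on the Balb/c strain, which carry a GFP reporter for Aire, the autoimmune regulator, so every population shares this transgene. The sort gates were AireGFP-B220-CD138+TACI+ for plasma cells and AireGFP+B220-CD138+TACI+ for the cells labelled pc-BMACs. The gate of the immature B cells was AireGFP-B220+CD138-TACI-IgM+. Each population had 2 libraries of 2000 to 15000 sorted cells. Neither the age of the mice nor the number of animals behind the 2 libraries is stated in the labels, so the spread within a pair may be technical. In a bulk library, a lower share of cells with an open site and a lesser opening in every cell cannot be told apart.

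ETS proteins share a DNA-binding domain that recognises a GGAA core, and they differ in partners and in the cells that use them. Erg and Fli1 are close relatives that hold the gene programme of blood stem cells, megakaryocytes and endothelium. Ets1 and Ets2 are signal-responsive activators, and Ets1 is abundant in lymphocytes, where it restrains plasma cell differentiation. Etv6 is a repressor needed by stem cells of the adult marrow, and Elf1 is an activator widely expressed in blood cells. Spi1 encodes PU.1, the master factor of myeloid cells that B cells use at a low level, and Spib encodes its B cell and plasmacytoid dendritic cell relative, Spi-B. In the mouse genome Erg lies beside Ets2 and Fli1 beside Ets1, with 0 protein-coding genes between the partners of either pair.

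Reference promoter sequences, from 250 bases before to 50 after an annotated start, were listed for 5 of the 8 genes (RefSeq, GRCm38.p6), at 8 starts in all; Fli1, Ets1 and Spi1 were not among them. The internal start of Erg and the start of Spib are printed because their cover by peaks differed between libraries, and the far start of Erg and the start of Etv6 because they had no peak and a full cover in every library. Capitals mark matches, on either strand, to any of 11 motifs searched. The ETS motifs were CCGGAAGT and the shorter CGGAAG, the PU.1 motif was GAGGAAGT, and GGAAGTGA stood for joined ETS and IRF sites. The Runx motif was TGTGGT. The E-box searched for was CAGCTG. The GATA motif used was AGATAA. For the AP-1 family the letters were TGACTCA, and for the octamer ATGCAAAT. A GC box was searched for as GGGCGG. The NF-Y box, the last of these motifs, was CCAAT. The shorter ETS motif lies within the longer one, and the ETS, PU.1 and joined motifs share a core, so that their matches can overlap.
Erg internal start, chr16:95459299-95459598, minus strand: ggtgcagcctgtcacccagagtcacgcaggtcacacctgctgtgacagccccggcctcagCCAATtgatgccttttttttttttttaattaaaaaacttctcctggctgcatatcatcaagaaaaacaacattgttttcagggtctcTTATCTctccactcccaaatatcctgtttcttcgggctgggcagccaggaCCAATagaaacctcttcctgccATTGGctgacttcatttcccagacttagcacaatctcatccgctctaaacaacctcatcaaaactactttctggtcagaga
Erg far start, chr16:95586544-95586843, minus strand: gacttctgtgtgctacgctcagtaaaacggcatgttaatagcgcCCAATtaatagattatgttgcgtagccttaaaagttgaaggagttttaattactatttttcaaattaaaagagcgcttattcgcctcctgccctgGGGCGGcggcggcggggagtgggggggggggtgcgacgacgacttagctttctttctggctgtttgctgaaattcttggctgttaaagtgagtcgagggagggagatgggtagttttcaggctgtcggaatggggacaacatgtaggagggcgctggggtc
Etv6 start, chr6:134035450-134035749, plus strand: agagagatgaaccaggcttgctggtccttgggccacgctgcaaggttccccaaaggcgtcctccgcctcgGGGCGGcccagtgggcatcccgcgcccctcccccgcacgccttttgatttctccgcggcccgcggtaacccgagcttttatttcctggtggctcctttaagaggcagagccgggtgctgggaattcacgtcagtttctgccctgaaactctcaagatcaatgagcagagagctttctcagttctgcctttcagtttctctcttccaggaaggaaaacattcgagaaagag
Spib start, chr7:44532022-44532321, minus strand: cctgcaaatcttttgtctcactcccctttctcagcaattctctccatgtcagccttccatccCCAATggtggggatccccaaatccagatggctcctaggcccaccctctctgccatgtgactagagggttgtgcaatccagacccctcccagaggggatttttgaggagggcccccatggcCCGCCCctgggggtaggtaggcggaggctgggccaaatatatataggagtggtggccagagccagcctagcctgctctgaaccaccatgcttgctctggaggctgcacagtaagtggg

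The internal promoter of Erg was under peaks in every plasma cell and immature B cell library and in no pc-BMAC library. Of its 300 bases, plasma cells 1 and 2 had 125 and 66 under peaks, immature B cells 1 and 2 had 192 and 83, and each pc-BMAC library had 0. The far promoter, at the upper-coordinate end of the gene, was under no peak in any library, and its nearest region lay 657 bp away, inside the gene. Another listed Erg start, between these, had its nearest region 33323 bp away. The promoter of Etv6 was covered over all 300 bases in all 6 libraries, and so were the promoters of Ets2 and both listed promoters of Elf1. The promoter of Spib was covered over all 300 bases in immature B cells 1 and 2 and plasma cells 2, and over 0 bases in plasma cells 1 and both pc-BMAC libraries.

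No ETS, PU.1, ETS and IRF, Runx or E-box match was found in these 8 windows. Among all 32851 listed promoters of this length, 16.9% hold CGGAAG, 3.89% CCGGAAGT, 3.2% GAGGAAGT, 3.42% GGAAGTGA, 16.8% TGTGGT and 16.3% CAGCTG. The internal Erg promoter held 3 CCAAT matches (in 37.4% of all promoters at least 1) and 1 GATA match (AGATAA, 11.2%), at bases 148 to 153 from its 5′ end. The far Erg promoter held 1 CCAAT and 1 GC box (GGGCGG, 35.7%), as did that of Spib, while Ets2, Etv6 and the first Elf1 start held 1 GC box each. The second Elf1 promoter held an octamer match (ATGCAAAT, 1.74%), an AP-1 match (TGACTCA, 5.2%) and 3 CCAAT matches. These matches are letters in a window and say nothing about which factor binds.

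The sorted populations had called regions at most of their own markers. Plasma cell markers (7 genes, 64 regions) were called at 43 to 45 regions in plasma cells, 40 to 45 in immature B cells and 42 to 43 in pc-BMACs. These totals did not separate the populations. Jchain had 3 regions in each plasma cell and pc-BMAC library against 1 and 0 in immature B cells. Xbp1 and Tnfrsf17 also had more in plasma cells than in immature B cells. Prdm1 (12 and 11 against 14 and 16) and Irf4 (3 and 3 against 4 and 4) had fewer, and Sdc1 and Tnfrsf13b overlapped. B cell markers (7 genes, 85 regions) were called at 49 to 50, 62 to 64 and 31 to 44 regions, and Cd79a had no called region in pc-BMACs 2. Plasma cells 1 stood apart in having a called region at 6 of 6 erythroid genes, Gata1, Hba-a1, Hbb-bt and Alas2 among them, against 1 or 2 genes in every other library. The lists held 34070 to 51643 peaks and no read counts, so depth is unknown and a region that was not called is not shown to be closed. On average 35375.0 regions were called per plasma cell library, 48030.5 per immature B cell library and 35307.5 per pc-BMAC library.

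Taken as 1 set, the member regions were called about as often as regions in general. Plasma cells 1 and 2 had 52% and 47.4% of the 171 member regions (51.8% and 50.5% of all regions), immature B cells 70.2% and 57.3% (74.1% and 64.8%), and pc-BMACs 56.1% and 45% (54.7% and 47.4%). The family average hides genes that went different ways, as the counts by library and the calling patterns show. Of the member regions 36 (21.1%) were called in all 6 libraries, against 29.6% of all regions. Most lay in the genes themselves, 118 (69%) overlapping the gene interval against 64% of all regions; the reference table has no exons, so introns and exons could not be told apart.

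**Figure D1:**
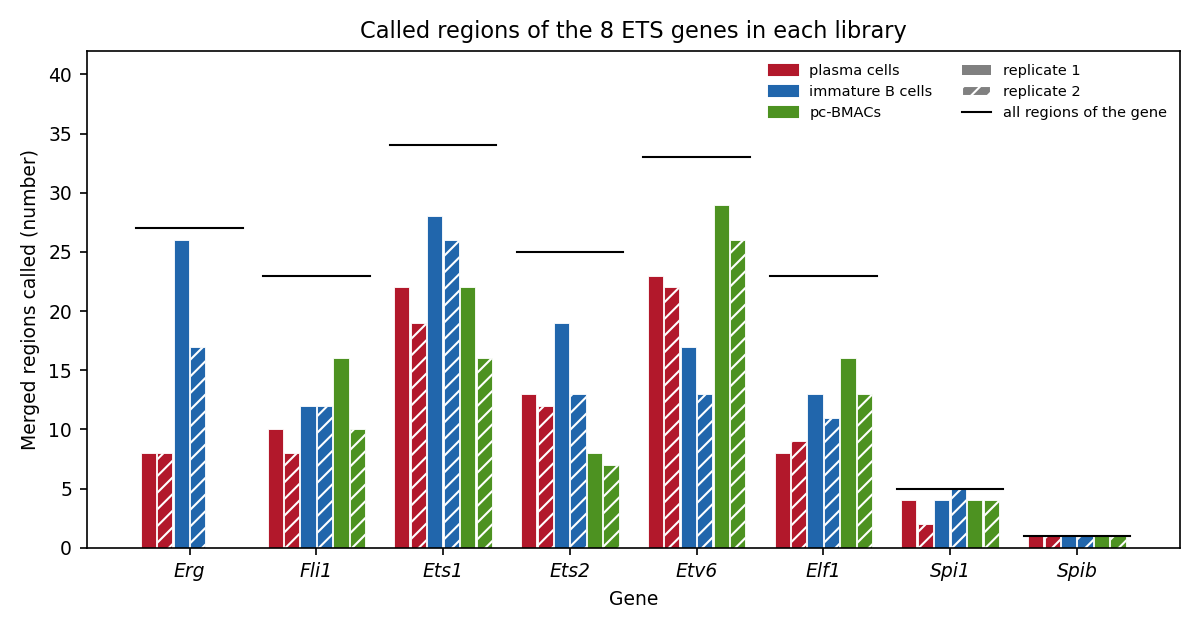
Number of merged regions called in each library (bars, y axis) for the 8 ETS genes (x axis), with replicates 1 and 2 of each population side by side and a black line at the gene's total. Erg has no bar for pc-BMACs, while Etv6 is highest there, at 29 and 26 of 33 regions.

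**Figure D2:**
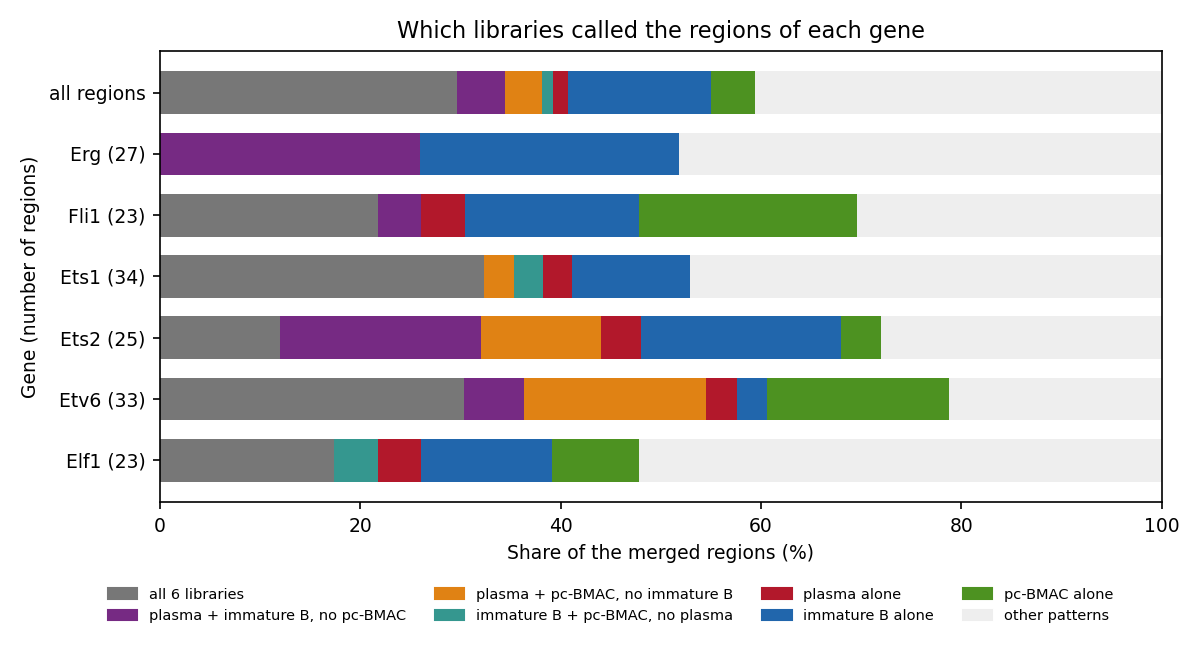
Share of merged regions (x axis, %) by the libraries that called them, for all 69171 regions and for each ETS gene with more than 5 regions; the colours are the combinations in the key and pale grey is any other combination. The grey share called in all 6 libraries is absent at Erg, and the pc-BMAC-alone share is widest at Fli1 (21.7%) and Etv6 (18.2%), against 4.42% of all regions.

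Erg was open in immature B cells, open over a part of the gene in plasma cells, and without a single called region in pc-BMACs. Of its 27 regions, immature B cells 1 and 2 had 26 and 17, plasma cells 8 and 8, and pc-BMACs 0 and 0. Neither pair of libraries overlapped another pair, and the order was immature B cells, plasma cells, pc-BMACs. The summed length under peaks gave the same order: 14819 and 7962 bp in immature B cells, 3173 and 4015 bp in plasma cells and 0 in pc-BMACs. Erg was proposed for description with such counts known, so these values are given without a test. With 2 libraries a population, the smallest two-sided p that an exact test of 2 against 2 can give is 0.333.

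The Erg regions of plasma cells were a subset of those of immature B cells, gathered in a stretch of the gene body. Each of the 9 regions called in either plasma cell library was also found in immature B cells 1 and 2. Apart from 1 region beyond the lower-coordinate end, they spanned 75.3 kb, from 25.3 to 100.6 kb above that end, and ended at the internal start. Between the lower-coordinate end and the internal start there were 15 regions, called 8 and 7 times in plasma cells and 14 and 12 times in immature B cells. From the internal start to the upper-coordinate end and beyond it there were 9 more, of which plasma cells had 0 and immature B cells 1 had all 9. Immature B cells 2 had 3 of these 9, so the calls there rest largely on 1 library. Of the 27 Erg regions, 10 were called in immature B cells 1 alone. That library called 74.1% of all regions, the most of any. The share of all regions called in it alone is not given, so the 10 are not read as a trait of Erg.

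Called in all plasma cell and immature B cell libraries and in no pc-BMAC library were 7 Erg regions (25.9% of 27, against 4.88% of all regions). The widest was chr16:95426982-95429087, where peaks covered 954 and 1216 bp in plasma cells, 2106 and 1131 bp in immature B cells and 0 in pc-BMACs. Next was chr16:95440303-95441954, with 191 and 255 bp in plasma cells against 1652 and 767 bp in immature B cells. The third, chr16:95384496-95385727, was covered over 357 and 570 bp in plasma cells and 1232 and 920 bp in immature B cells. Plasma cell peaks were therefore not wider than immature B cell peaks at Erg: in 0 of the 7 shared regions did both plasma cell libraries cover more than both immature B cell libraries, and the reverse held in 4 (57.1%), close to the 58.4% of all 25402 regions shared by these populations. Immature B cells alone, with both libraries, had a further 7 Erg regions (25.9%, against 14.3% of all regions), the widest being chr16:95360077-95360990 (914 and 757 bp) and chr16:95631563-95632235 (673 and 477 bp). Another of them, named for its place just inside the far start, was chr16:95585518-95585886 (360 and 299 bp).

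The missing pc-BMAC peaks extended beyond Erg. Between a region assigned to Kcnj6 and one at chr16:95692578-95692836 near Ets2, itself called in pc-BMACs 1 alone, no pc-BMAC peak lay within 968 kb. That stretch held 39 regions of the other populations, 27 of Erg, 5 of Kcnj6, 3 of Kcnj15 and 4 of Ets2; both libraries called 20 of them for immature B cells and 10 for plasma cells. Among 39948 stretches between neighbouring pc-BMAC regions of a chromosome, it ranked 2nd by the number of regions it held and 4th by those called for immature B cells in both libraries. The first by all regions was one of 81 regions on chromosome 6 to which no protein-coding gene was assigned. The third, with 32 regions, was at Bcl11a, a transcription factor of early B cells. Of 2255 genes with at least 8 regions, 46 (2.04%) had none called in pc-BMACs, and Erg had the most regions of these 46, ahead of Auts2 with 17.

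**Figure D3:**
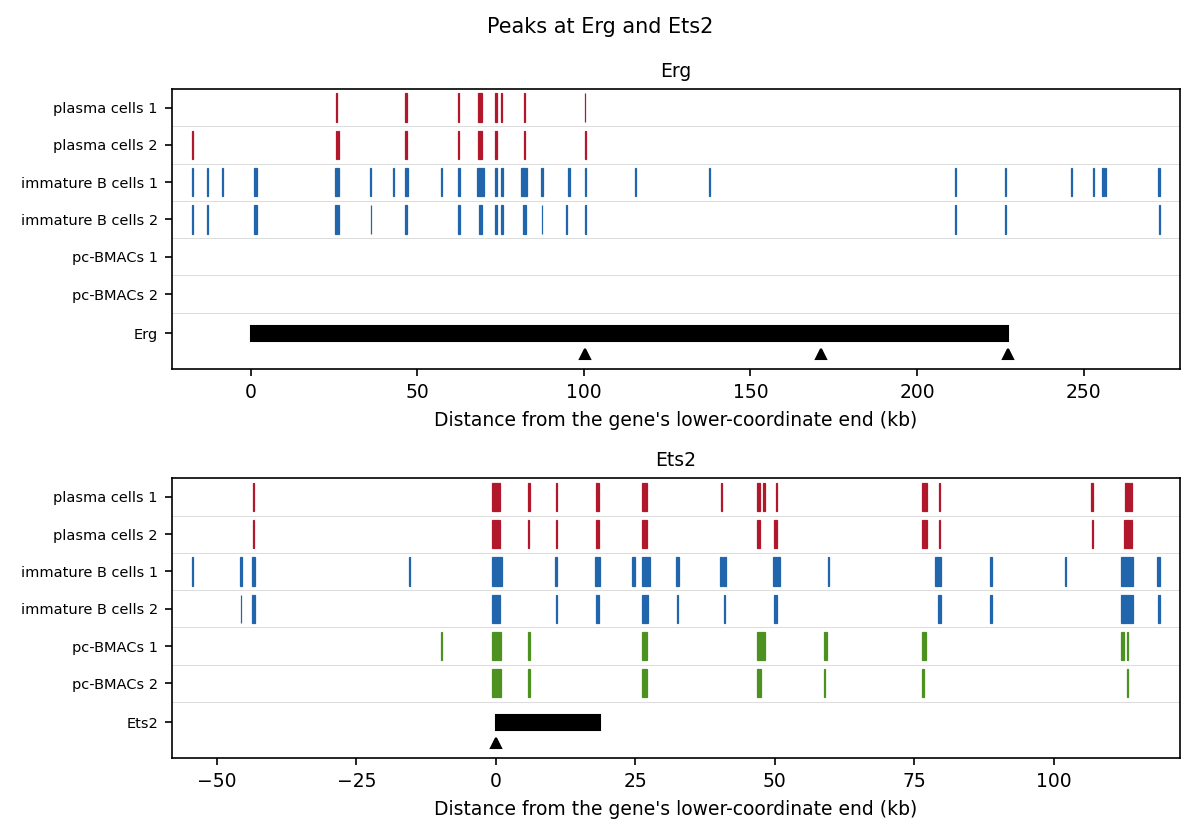
Peaks of each library (coloured boxes, 1 row per library) along Erg and Ets2, by distance in kb from the gene's lower-coordinate end (x axis); black bars are gene intervals and triangles annotated starts. The pc-BMAC rows are empty at Erg, and the plasma cell peaks stop at the internal start near 100 kb. At Ets2 each population has peaks of its own beside 3 regions shared by every library, that at the start among them.

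The genes whose calls were most like those of Erg were Col26a1, Auts2, Tox, Chrm3 and Hs3st2. Likeness was the sum over the 6 libraries of the difference in the share of a gene's regions called, 0.0909 for Col26a1 (of 11 regions, plasma cells had 3 and 3, immature B cells 11 and 7, and pc-BMACs 0 and 0) and 0.118 for Auts2 (4 and 5, 17 and 11, and 0 and 0 of 17). For Tox, Chrm3 and Hs3st2 it was 0.167, 0.217 and 0.218. The 6 values of a gene share their libraries and list lengths, so this is a description of 6 points.

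The genes that work with Erg and Fli1 in blood progenitors went different ways, and each had a called region in both pc-BMAC libraries. At Gata2, with 4 regions, pc-BMACs had more calls, 3 and 4, than plasma cells (0 and 1) or immature B cells (1 and 1). At Runx1, with 30, pc-BMACs had 12 and 10, plasma cells 11 and 14, and immature B cells 20 and 14. At Lmo2, with 14, the counts in that order were 6 and 4, 8 and 6, and 11 and 9, which is the order of populations seen at Erg, with pc-BMACs 1 equal to plasma cells 2. At Tal1, with 3, they were 2 and 2, 2 and 3, and 1 and 0, and the 1 region of Lyl1 was called in all 6 libraries. Stem and progenitor markers (6 genes, 24 regions) were called at 9 to 13 regions in plasma cells, 9 to 12 in immature B cells and 15 to 16 in pc-BMACs. Of these genes, only Kit and Gata2, the latter given above, had more calls in both pc-BMAC libraries than in every other library. Of 5 Kit regions, plasma cells had 3 and 2, immature B cells 1 and 0, and pc-BMACs 5 and 5. At Cd34, Hlf, Mecom and Procr the pc-BMAC pair overlapped the plasma cell pair. At Hlf and Mecom pc-BMACs 2 had 0, the lowest count of any library. Endothelial markers (6 genes, 28 regions, none at Tek) were called at 13 to 14, 15 to 20 and 14 to 18 regions, and megakaryocyte markers (4 genes, 7 regions) at 3 to 4, 2 to 6 and 2, with Pf4 and Gp1ba at 0 in every library but immature B cells 1. Myeloid markers (6 genes, 11 regions, none at Elane) were called at 4 to 6, 5 to 6 and 3 to 4 regions, T cell markers (6 genes, 13 regions) at 7, 6 to 7 and 6 to 8, NK cell markers (5 genes, 12 regions) at 7 to 9, 7 to 8 and 5 to 6, and plasmacytoid dendritic cell markers (4 genes, 47 regions) at 24 to 25, 32 to 33 and 22 to 26. B cell marker regions were fewer in pc-BMACs, as given above, and the part of other cells in the Erg calls was not tested.

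At Ets2, the neighbour of Erg, pc-BMACs had fewer called regions than the other populations, and the start was called in all 6 libraries. Of 25 regions, pc-BMACs 1 and 2 had 8 and 7, plasma cells 13 and 12, and immature B cells 19 and 13. The pc-BMAC pair lay below all other libraries, while immature B cells 2 equalled plasma cells 1. The region over the start (chr16:95701702-95703486) was covered over 1299 to 1751 bp in all 6 libraries. Called in every plasma cell and immature B cell library and in no pc-BMAC library were 5 regions (20%, against 4.88% of all regions). The widest were chr16:95752074-95753263, beyond the gene, with 267 and 537 bp in plasma cells against 1190 and 685 bp in immature B cells, and chr16:95781111-95782128, with 286 and 305 bp against 1018 and 469 bp. Only 4 of the 25 regions overlap the gene. With a 10 kb limit 7 were left, the mean per library was 5.0 in plasma cells, 4.5 in immature B cells and 3.5 in pc-BMACs, and pc-BMACs 1 equalled immature B cells 2, so the separation of pc-BMACs rests on regions farther out.

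Ets2 also had 3 regions of plasma cells and pc-BMACs that immature B cells lacked (12%, against 3.66% of all regions). At chr16:95749137-95750700, beyond the gene, peaks covered 711 and 403 bp in plasma cells and 1564 and 712 bp in pc-BMACs. At chr16:95778729-95779633 they covered 873 and 874 bp and 782 and 286 bp. The 100 kb limit fell among regions of this gene: the last region inside it, 99.9 kb away, was one of immature B cells 1 and 2 alone, and the first outside, 106.1 kb away, in all 6 libraries.

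At Fli1, the close relative of Erg, pc-BMACs had called regions in numbers like those of the other populations, but in part at other places. Of 23 regions, pc-BMACs 1 and 2 had 16 and 10, immature B cells 12 and 12 and plasma cells 10 and 8. The immature B cell pair lay above the plasma cell pair. The pc-BMAC pair overlapped both, so pc-BMACs could not be placed in this order. The wide region chr9:32506126-32511414 was covered over 3060 to 4933 bp in all 6 libraries, and chr9:32539196-32542728, close to the upper-coordinate end, over 1680 to 3530 bp. Both are among the 5 Fli1 regions called in all 6 libraries (21.7%, against 29.6% of all regions).

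Called in both pc-BMAC libraries alone were 5 Fli1 regions, 21.7% of 23 against 4.42% of all regions. They were chr9:32487411-32487778 (312 and 368 bp in pc-BMACs 1 and 2), chr9:32495533-32496159 (590 and 627 bp) and chr9:32519320-32519759 (418 and 440 bp) in the gene, and chr9:32552294-32552621 (309 and 300 bp) and chr9:32561161-32561555 (395 and 275 bp) between Fli1 and Ets1. Immature B cells had 4 regions alone (17.4%, against 14.3%), the widest being chr9:32492697-32494452, with 1756 and 1104 bp. This region lies next to the pc-BMAC region chr9:32495533-32496159, and neither population had a peak in the other's region. Plasma cells had 1 region alone (4.35%, against 1.5% of all regions), chr9:32489263-32489688, with 349 and 368 bp.

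Ets1 was most widely called in immature B cells, as were regions in general. Of 34 regions they had 28 and 26, plasma cells 22 and 19 and pc-BMACs 22 and 16. Both immature B cell libraries lay above the other 4, which overlapped. The same held over all regions, with 74.1% and 64.8% called in immature B cells and 47.4% to 54.7% in the other libraries. Immature B cells alone had 4 Ets1 regions (11.8%, against 14.3% of all regions). Over the lower-coordinate end (chr9:32635691-32636888) peaks covered 1198 and 480 bp in immature B cells, 0 in both plasma cell libraries and 259 and 0 bp in pc-BMACs. A region inside the gene, chr9:32694926-32698244, was covered in all 6 libraries, over 3314 and 2815 bp in immature B cells, 1477 and 1447 bp in plasma cells and 1250 and 1390 bp in pc-BMACs.

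Peak extent at Ets1 went the same way as the counts. In 10 of 13 Ets1 regions shared by immature B cells and pc-BMACs (76.9%) both immature B cell libraries covered more than both pc-BMAC libraries, against 30.5% of all 22356 such regions. The reverse was seen in 0 of the 13, against 17.6%. The widths of peaks depend on depth and calling, which are unknown. An exception to the order was chr9:32676094-32676939, covered over 276 and 672 bp in plasma cells and 819 and 787 bp in pc-BMACs and over 0 in immature B cells. Another, chr9:32608699-32611741 upstream of the lower end, was called in immature B cells (3043 and 1087 bp) and pc-BMACs (582 and 673 bp) but not in plasma cells, 1 of only 2 member regions of this kind (1.17%, against 1.06% of all regions); the other was in Elf1.

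**Figure D4:**
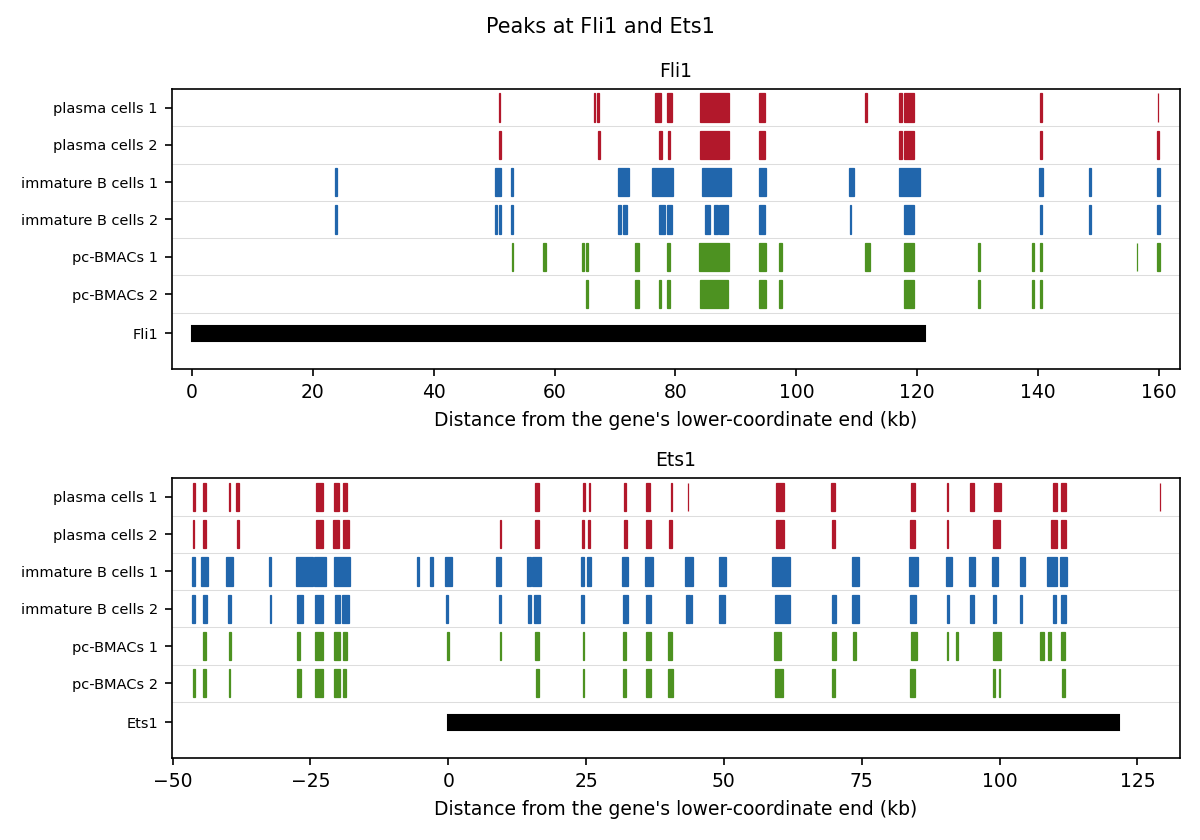
Peaks of each library (coloured boxes, 1 row per library) along Fli1 and Ets1, by distance in kb from the gene's lower-coordinate end (x axis); black bars are gene intervals. At Fli1 several green pc-BMAC boxes have no counterpart in the other rows while the wide boxes are common to all 6, and at Ets1 the immature B cell rows hold the most and the widest boxes.

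Etv6 had the opposite order to Erg. Of its 33 regions, pc-BMACs 1 and 2 had 29 and 26, plasma cells 23 and 22 and immature B cells 17 and 13. The 3 pairs did not overlap. Summed peak length gave 20939 and 17407 bp in pc-BMACs, 12031 and 11236 bp in plasma cells and 9335 and 7122 bp in immature B cells. Lists of immature B cells were the longest of all. On average they had 48030.5 called regions per library, against 35375.0 in plasma cells and 35307.5 in pc-BMACs. The part of list length in the order at Etv6 was not tested.

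Regions of Etv6 called in pc-BMACs and plasma cells but not immature B cells numbered 6 (18.2%, against 3.66% of all regions), and 6 more were called in pc-BMACs alone (18.2%, against 4.42%). The widest of the first kind was chr6:134225185-134226046, with 561 and 548 bp in plasma cells and 862 and 602 bp in pc-BMACs. The widest of the second kind were chr6:134261926-134262846, with 921 and 799 bp, and chr6:134157293-134158055, with 763 and 530 bp. Plasma cells alone had 1 Etv6 region (3.03%, against 1.5% of all regions), chr6:134059556-134059884, with 329 and 235 bp. Immature B cells alone also had 1, of 190 bp (3.03%, against 14.3% of all regions).

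Peaks at Etv6 were also more extended in pc-BMACs in most regions that they shared with either other population. In 8 of 10 regions shared with immature B cells (80%) both pc-BMAC libraries covered more than both immature B cell libraries, against 17.6% of all such regions, and the reverse held in 0. Against plasma cells it was 14 of 18 (77.8%), compared with 51.9% of all 23804 such regions. At chr6:134219320-134220973, for example, peaks covered 1654 and 1542 bp in pc-BMACs, 879 and 793 bp in plasma cells and 921 and 802 bp in immature B cells. The start region, chr6:134034737-134036801, which also overlaps the predicted gene Gm46977, differed less: plasma cells had 1415 and 1847 bp there, immature B cells 1920 and 1834 bp and pc-BMACs 2044 and 1777 bp.

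Elf1 had more called regions in pc-BMACs than in plasma cells, with immature B cells between and overlapping pc-BMACs. Of 23 regions, all overlapping the gene, pc-BMACs had 16 and 13, immature B cells 13 and 11 and plasma cells 8 and 9. The start region, chr14:79480558-79482595, shared with the neighbour Wbp4, was covered over 1460 to 1940 bp in all libraries, and the second start lay in chr14:79515301-79517099, covered over 601 to 1799 bp in all. Called in both pc-BMAC libraries alone were chr14:79549336-79549767 (432 and 209 bp) and chr14:79507817-79508203 (387 and 295 bp), which is 8.7% of Elf1 regions against 4.42% of all regions. Immature B cells alone had 3 (13%, near the 14.3% of all regions), led by chr14:79529616-79530936 (1321 and 525 bp). Plasma cells alone had 1 (4.35%, against 1.5% of all regions), chr14:79548334-79548579 (150 and 235 bp).

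Spi1 had few regions, of which 2 of 5 (40%, against 29.6% of all regions) were common to all 6 libraries. Its plasma cell libraries had 4 and 2, immature B cells 4 and 5 and pc-BMACs 4 and 4. Just inside the lower-coordinate end, chr2:91082773-91083729 was covered over 702 to 951 bp in all 6 libraries, and chr2:91096348-91097554, in the gene, over 840 to 1207 bp. Plasma cells 2 lacked the regions chr2:91077948-91079075 and chr2:91101376-91101768, which plasma cells 1 covered over 230 and 226 bp and the other 4 libraries over 632 to 1128 bp and 234 to 393 bp. The fifth region, of 150 bp, was called in immature B cells 2 alone. Below the gene, chr2:91069488-91071019 was nearest to Slc39a13 and so outside the rule; it was called in all 6 libraries (907 to 1532 bp), and the 20 kb window around Spi1 and Spib was added after seeing the data.

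Spib shows what merging can hide. Its only region, chr7:44524703-44535229, was called in all 6 libraries, spans 10527 bp and also overlaps Mybpc2 and Pold1. In immature B cells it was 1 unbroken peak, of 10527 and 10136 bp. In plasma cells 1 and 2 it was 3 and 2 peaks covering 31.9% and 46.6% of the region, and in each pc-BMAC library 4 peaks, covering 43.1% and 32%. The start of Spib was inside the immature B cell peaks and a 3950 bp peak of plasma cells 2, and in a gap between peaks in plasma cells 1 and both pc-BMAC libraries, so the plasma cell libraries differed there. Within 20 kb of the gene, chr7:44535877-44537219 in Pold1 was called in immature B cells alone (1343 and 1037 bp).

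**Figure D5:**
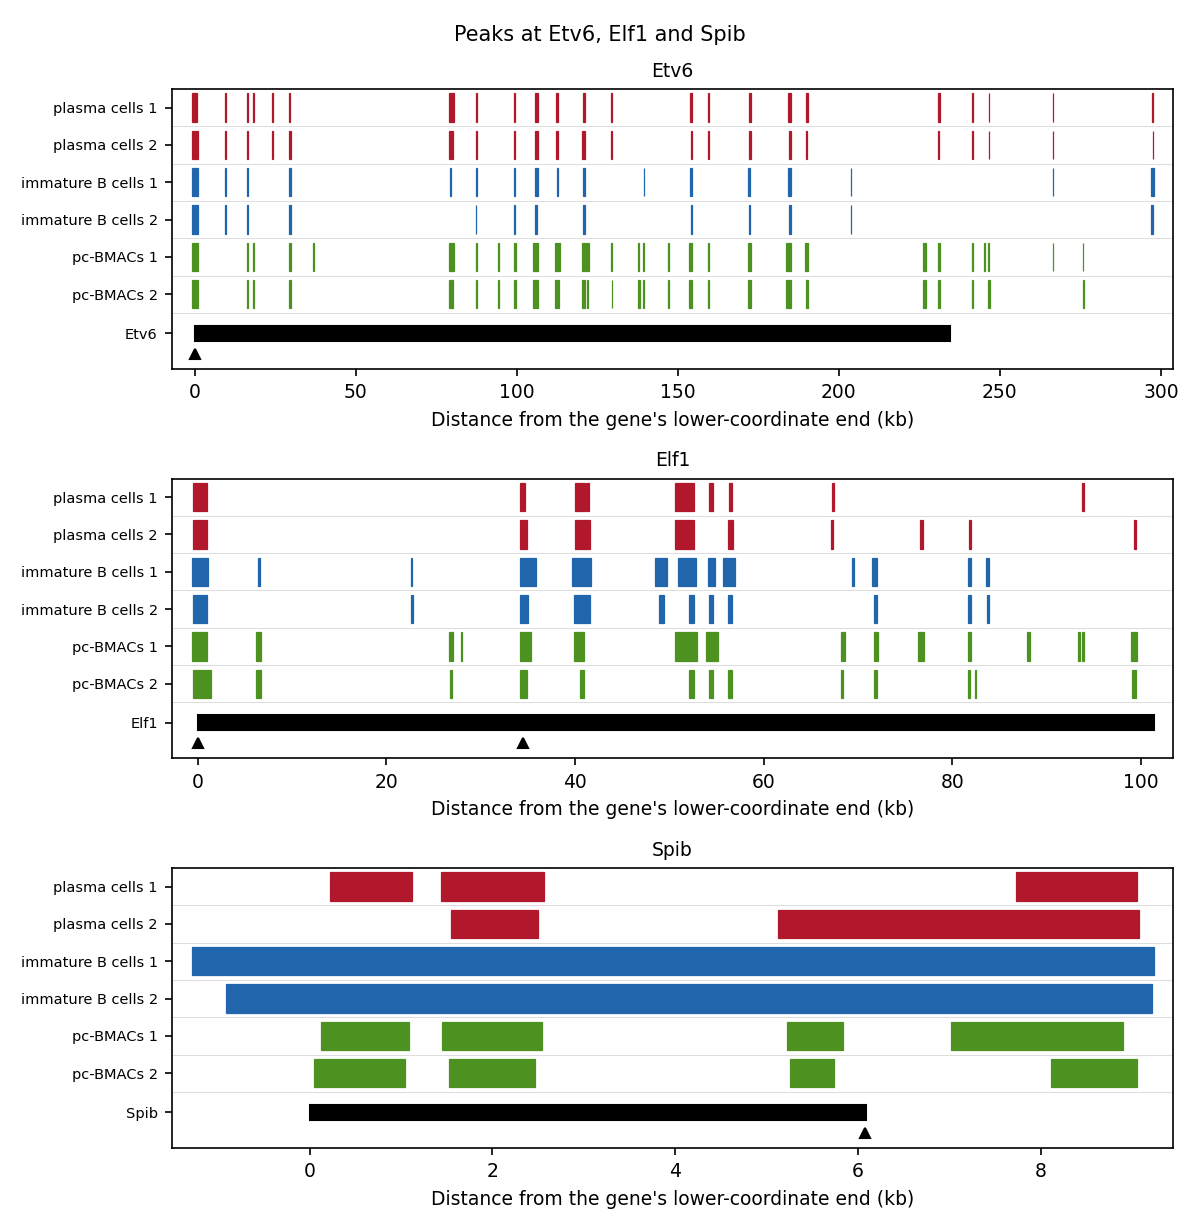
Peaks of each library (coloured boxes, 1 row per library) along Etv6, Elf1 and Spib, by distance in kb from the gene's lower-coordinate end (x axis); black bars are gene intervals and triangles annotated starts. The pc-BMAC rows are fullest at Etv6, and at Spib the 2 immature B cell libraries each have 1 box across nearly all of the region where the other 4 libraries have 2 to 4 separate boxes.

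Irf4 and Irf8, which pair with PU.1 and Spi-B in B cells, had overlapping or close counts in the 3 populations. Of 5 Irf4 regions, plasma cells had 3 and 3, immature B cells 4 and 4 and pc-BMACs 3 and 3. Of 21 Irf8 regions they had, in the same order, 13 and 12, 15 and 13, and 14 and 14. Of 10 regions of Pou2af1, the B cell coactivator of octamer factors, they had 8 and 5, 5 and 5, and 7 and 7.

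Over the 8 genes, and without a test, regions that separated pc-BMACs from plasma cells were more frequent than among all regions in both directions, by different genes. Called in both plasma cell libraries and neither pc-BMAC library were 21 of 127 member regions (16.5%, against 9.46% of all regions), 7 of them at Erg and 6 at Ets2. In the opposite direction there were 18 (14.2%, against 8.42%), 7 at Etv6, 5 at Fli1 and 4 at Elf1. In the rest of this paragraph, alone refers to the 2 populations compared, whatever the remaining population had. Between plasma cells and immature B cells, 15 of 145 were in plasma cells alone (10.3%, against 6.35%), 7 of them at Etv6. In immature B cells alone there were 29 (20%, against 19%). Between pc-BMACs and immature B cells, 26 of 164 were in pc-BMACs alone (15.9%, against 10.3%), 13 at Etv6, and 43 in immature B cells alone (26.2%, against 24.1%), 16 at Erg and 10 at Ets2. The share in immature B cells alone thus lay close to that of all regions in both comparisons. Leaving out a library loosens the rule for its population to a single list, so such counts can rise for any set of regions. Without pc-BMACs 2 the pc-BMAC-alone count against plasma cells was 32 in place of 18, and against immature B cells 40 in place of 26. Without immature B cells 2 the immature-B-alone count against plasma cells was 49 in place of 29. The share over all regions under these settings is not given, so the changes are not read as a trait of the ETS genes.

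The 18 other ETS genes, a list named with these results known, had 89 regions at 17 genes. Of 69 called in plasma cells or pc-BMACs, 13 were in pc-BMACs alone (18.8%, against 8.42% of all regions) and 3 in plasma cells alone (4.35%, against 9.46%). Of the 13, 6 were at Elk3, a ternary complex factor that can act as a repressor. Of the 23 Elk3 regions, pc-BMACs had 16 and 14, plasma cells 9 and 10, and immature B cells 16 and 14. The others of the 13 were 2 at Elf3 and 1 each at Elf4, Etv1, Etv3, Etv5 and Spdef. Regions of immature B cells that plasma cells lacked numbered 18 of 75 (24%, against 19% of all regions), with 5 at Elk3, 4 at Etv1, 2 each at Elf2, Elf5 and Etv5, and 1 each at Ehf, Etv3 and Spic, the closest relative of Spi1 and Spib, whose 1 region pc-BMACs lacked as well. Regions of pc-BMACs that immature B cells lacked numbered 13 of 86 (15.1%, against 10.3% of all regions), of which Elk3 had 4, Elf3 and Etv3 2 each, and Elf2, Elf4, Etv4, Etv5 and Spdef 1 each. Called in all 6 libraries were 29 of the 89 regions (32.6%, near the 29.6% of all regions), and Fev had no region.

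The descriptions of the libraries carry an R number, whose meaning was not stated, and each number joins 1 pair of libraries. Within the pair that shares R number 2, immature B cells 1 had 26 Erg regions and pc-BMACs 1 had 0, and at Etv6 they had 17 and 29. For R number 3, plasma cells 1 had 8 Erg regions and pc-BMACs 2 had 0, and at Etv6 they had 23 and 26. For R number 4, plasma cells 2 had 8 Erg regions and immature B cells 2 had 17, and at Etv6 they had 22 and 13. The orders at Erg and Etv6 were thus the same within these pairs. Since the populations did not overlap at either gene, any pairing of their libraries would give these orders. The pairs therefore say nothing about what the R number stands for.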

How the data were processed

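Per the labels' protocols, ATAC-seq libraries were made from 2000 to 15000 sorted cells, 2 for each of 3 populations. The submitters' processing notes list bedtools, HOMER 4.10, Bowtie2 2.3.3 and mm10 without roles; how peaks were called, pooled or filtered is not given in the sources used here. List names call them intersected peaks without saying what was intersected, so a call in one library may depend on another list. Each library's deposited list holds peak positions and, in every row, a score of 1000, which was not used. Depth is unknown, so no interval was computed.

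Python 3.11.15 and NumPy 2.4.6 merged overlapping peaks and assigned 65361 of 69171 regions (94.5%) to the nearest of 21900 protein-coding gene intervals; 3 member regions overlapping several genes went to the gene with the larger overlap. These steps were tested on simulated data. Counts are given beside those of all regions, with no p: the smallest exact p is 0.333 for 2 against 2 libraries and 0.0667 for 3 groups of 2. Named regions lie over a gene end or were called in both libraries of some populations and none of another, widest first; regions of all 6 libraries, of 1 library, or named for their place were chosen after their values were seen. The members, lists, motifs and likeness rule were chosen with earlier results of these data known. Alternatives were a 50% overlap, the widest 34070 or 17035 peaks, a 10 kb limit and leaving out each library.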

Additional observations from a re-analysis of the deposited data

How the results depend on the processing

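Erg had 0 called regions in both pc-BMAC libraries under every alternative that changed the peaks, the overlap or the distance. These alternatives only take away peaks, calls or regions, so a count of 0 could not have risen under them. The 7 Erg regions of plasma cells and immature B cells fell to 2 under a minimum cover of 50% of a region and to 3 with the widest 17035 peaks, which leave 6 Erg regions in all; leaving out 1 library gave 7 to 8. With the widest 17035 peaks of each list, which leave 81 member regions, the 6 counts over all members were 8 (plasma cells) and 5 (pc-BMACs), 6 (plasma cells) and 10 (immature B cells), and 11 (pc-BMACs) and 17 (immature B cells). The 50% overlap gave 13 regions of plasma cells against pc-BMACs in place of 21, and the 10 kb limit, which leaves 128 member regions, gave 19 of immature B cells against plasma cells in place of 29. Leaving out 1 library gave 31 to 49 regions of immature B cells against plasma cells. It gave 19 to 32 of pc-BMACs against plasma cells and 27 to 40 of pc-BMACs against immature B cells. Counts over all regions under these alternatives are not given, so the shifts are not read as particular to the members.

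Of the 65 recomputed counts 52 stayed within 1.5 times of the reported one. Results for single genes were less steady: 278 recomputed values were classed as the same, 102 as moved and 4 as turned in sign. For example, plasma cells minus immature B cells moved from -7 to -17 at Erg without immature B cells 2. The 4 that turned were balances, each from a balance of 1 to 3 regions. Plasma cells minus pc-BMACs turned from 1 to -2 at Ets1 without pc-BMACs 2, and from -3 to 1 at Fli1 with the widest 17035 peaks. Plasma cells minus immature B cells turned from -1 to 1 at Ets2 with the widest 17035 peaks and with the 10 kb limit. The cause was not tested. Assigning a region to every gene it overlaps added 0 regions.

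No paired analysis was possible because the counts come from no test and any 2 populations share only 1 R number; the counts within these single pairs are given with the results. Without depths, an uncalled region is not shown to be closed.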
